A study of Mus musculus with 19 samples.

Results

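Cortical projection neuron markers were followed in RNA from the mouse striatum. The set held 7 genes, matched by name in the deposited comparison tables and by gene identifier in the count files, out of 49592 genes with a count line and 21513 genes tested. The members are Slc17a7, Neurod2, Neurod6, Tbr1, Emx1, Fezf2 and Cux2, and all 7 passed the filter on low counts. The material came from 19 male mice aged 4 months, all of the D2RCre_floxCas9-EGFP line, so that controls as well as knockouts carried Cre at the D2 receptor and a Cas9 linked to EGFP that depends on Cre. Control mice received AAV5 syn-mCherry in the medial prefrontal cortex, and PFC_D2R-KO mice received AAV5 D2R-sgRNA there (the protocol writes D2R-sgRNA/mCherry). The receptor was not measured in the prefrontal cortex in these files, so no striatal level checks the knockout. From 3 weeks after surgery mice were given saline on 5 days, and on day 9 a challenge, either saline again or 3 mg/kg amphetamine (ip). The labels state that mice were killed 90 min after amphetamine. The groups were saline control (n = 5), amphetamine control (n = 5), saline D2R-KO (n = 5) and amphetamine D2R-KO (n = 4), each library from 1 mouse. The comparisons ask whether the striatum responds to acute amphetamine and whether that response depends on the prefrontal D2 receptor.

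Excitatory projection neurons of the cortex use glutamate and descend from progenitors of the dorsal forebrain, the pallium. The principal neurons of the striatum descend from the ventral forebrain, use GABA and receive a dense input from cortical axons, whose cell bodies lie outside the striatum. Transcripts of pallial neurons in a striatal sample are therefore commonly read as a marker of neighbouring tissue, and in bulk RNA a change in the number of such cells cannot be told apart from a change in RNA per cell. Slc17a7 encodes VGLUT1, the transporter that fills synaptic vesicles with glutamate in most cortical excitatory neurons. Neurod2 and Neurod6 encode basic helix-loop-helix transcription factors of differentiating and mature cortical excitatory neurons. Tbr1 encodes a T-box factor of early-born and layer 6 neurons, and Emx1 a homeobox factor of the dorsal forebrain lineage. Fezf2 encodes a zinc finger factor that specifies subcerebral projection neurons of layer 5, and Cux2 a cut-homeobox factor used as a marker of the upper layers.

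The promoters of 4 members whose levels varied together and of Cux2, which followed them least, are shown here for comparison. Each is the 250 bases before a RefSeq gene start of mouse build GRCm38.p6, a different build from the GRCm39 of the deposited coordinates, and is read 5′ to 3′ along the gene's strand. Capitals mark matches to the motifs searched, and positions are those of the first base counted back from the start.

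Slc17a7, chr7:45163671-45163920, plus strand: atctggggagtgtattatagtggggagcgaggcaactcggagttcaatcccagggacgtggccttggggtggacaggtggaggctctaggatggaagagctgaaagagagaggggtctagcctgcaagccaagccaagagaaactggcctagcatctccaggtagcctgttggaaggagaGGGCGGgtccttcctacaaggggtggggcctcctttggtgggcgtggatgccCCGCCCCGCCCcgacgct
Neurod2, chr11:98329646-98329895, minus strand: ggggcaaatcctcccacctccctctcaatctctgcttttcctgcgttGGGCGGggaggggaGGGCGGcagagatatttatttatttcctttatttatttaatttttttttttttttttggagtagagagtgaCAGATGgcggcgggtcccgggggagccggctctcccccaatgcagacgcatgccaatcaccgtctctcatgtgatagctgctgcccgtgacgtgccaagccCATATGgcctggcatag
Neurod6, chr6:55681264-55681513, minus strand: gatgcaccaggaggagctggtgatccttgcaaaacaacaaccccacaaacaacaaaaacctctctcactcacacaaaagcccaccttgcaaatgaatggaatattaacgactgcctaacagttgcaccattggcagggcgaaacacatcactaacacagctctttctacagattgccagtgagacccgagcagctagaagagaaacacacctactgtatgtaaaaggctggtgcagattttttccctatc
Tbr1, chr2:61804203-61804452, plus strand: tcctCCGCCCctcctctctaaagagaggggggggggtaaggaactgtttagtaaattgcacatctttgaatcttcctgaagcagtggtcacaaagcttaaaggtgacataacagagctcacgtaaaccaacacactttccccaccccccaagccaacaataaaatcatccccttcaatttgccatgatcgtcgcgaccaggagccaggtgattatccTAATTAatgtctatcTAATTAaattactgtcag
Cux2, chr5:122047826-122048075, minus strand: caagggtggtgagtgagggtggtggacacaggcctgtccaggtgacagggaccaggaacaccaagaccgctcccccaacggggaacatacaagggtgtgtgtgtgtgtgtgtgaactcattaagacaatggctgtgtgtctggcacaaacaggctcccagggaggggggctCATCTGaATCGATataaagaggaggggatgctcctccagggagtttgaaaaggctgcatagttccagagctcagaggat

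Motifs were searched on both strands, and all 7 members matched a promoter entry, Cux2 with 2 starts, which made 8 entries. The E-box CAGATG, or CATCTG on the other strand, is a core bound by NeuroD factors. It stood at -118 in Neurod2 and at -79 in the Cux2 promoter shown, and it occurred in 14.4% of 32851 promoter windows of this length. Neurod2 also held the palindromic E-box CATATG at -17, found in 3.46% of windows. Tbr1 held the homeobox core TAATTA at -33 and -18, found in 4.84% of windows. The cut-domain sequence ATCGAT stood at -72 in the Cux2 promoter shown and occurred in 0.728% of windows. The promoter of the other Cux2 start, with 80.0% GC, held none of the motifs searched. The T-box core AGGTGTGA, found in 1.12% of windows, was in no member. The GC box GGGCGG, or CCGCCC, was in 5 members and in 32.7% of windows. The Slc17a7 promoter held it at -70, -18 and -13, the last pair overlapping by a base. Neurod6, whose level rose and fell with those of Slc17a7 and Neurod2 across mice, held none of the motifs searched. None of the motifs searched was therefore common to all of the genes that varied together. Other shared sequences were not searched for.

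Library totals ran from 57003408 to 85536346 counts, with 27591 to 29281 genes detected. The tissue label matched the striatal markers, since Penk, the enkephalin precursor of indirect-pathway neurons, had a mean FPKM of 481.9 and Ppp1r1b, which encodes DARPP-32, a mean FPKM of 424.3 over the 19 libraries. FPKM is the deposited level per gene length, and CPM below is the usual depth-scaled count after TMM scaling, which compares mice but not genes. On distance, 5 libraries lay farthest from the rest on the first 4 principal components: saline control 5, amphetamine control 3, saline D2R-KO 3 and amphetamine D2R-KO 2 and 3. Values without them are given for the comparisons after amphetamine, and they keep only amphetamine D2R-KO 1 and 4 of that group.

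Per gene length, Slc17a7 was by far the most abundant member. Its mean FPKM over the 19 libraries was 106.9, with a range from 12.75 to 287.4. Tbr1 followed with a mean FPKM of 7.621, Neurod2 with 5.76, Cux2 with 5.595, Neurod6 with 4.596, Emx1 with 1.908 and Fezf2 with 1.778. Apart from the first place this order did not hold from mouse to mouse: the FPKM of Neurod2 ran from 0.6233 to 15.61 and that of Cux2 from 3.106 to 7.114. Counts were lowest for Emx1, which had 40 to 618 per library, Neurod6, with 86 to 1529, and Fezf2, with 190 to 1130.

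The glutamate transporter gene Slc17a7 (ENSMUSG00000070570.6, GRCm39 chromosome 7, 44813373 to 44825566) had 250.5, 456.4, 39.29, 88.82 and 452.1 CPM in the 5 saline control mice. It had 250.7, 585.0, 737.7, 297.8 and 348.3 CPM in the amphetamine control mice. In D2R-KO mice it had 110.8, 167.1, 81.67, 192.4 and 388.6 CPM after saline and 324.3, 67.67, 876.8 and 528.7 CPM after amphetamine. The highest mouse, amphetamine D2R-KO 3, thus had 22.3 times the level of the lowest, saline control 3, and the groups overlapped in every comparison. The lowest amphetamine mouse, D2R-KO 2, lay below 9 of 10 saline mice.

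The bHLH gene Neurod2 (ENSMUSG00000038255.7, chromosome 11, 98216241 to 98220474) ran from 1.959 CPM in saline control 3 to 48.59 CPM in amphetamine D2R-KO 3, a 24.8-fold range. Its values were 12.85, 24.86, 1.959, 5.001 and 28.8 CPM in saline control and 15.86, 30.81, 39.43, 16.81 and 18.05 CPM in amphetamine control mice. In D2R-KO mice they were 7.729, 10.36, 3.551, 14.62 and 15.67 CPM after saline and 16.68, 4.182, 48.59 and 27.55 CPM after amphetamine. The mice that were high or low in Slc17a7 were high or low in Neurod2 as well, and again no pair of groups separated.

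Neurod6 (ENSMUSG00000037984.10, chromosome 6, 55654807 to 55658248), the relative of Neurod2, came close to separating the control groups. Saline control mice had 7.249, 12.43, 1.217, 1.108 and 9.032 CPM, and amphetamine control mice had 10.94, 19.68, 22.98, 12.14 and 13.13 CPM. All 5 amphetamine mice lay above 4 of the 5 saline mice, and saline control 2 fell among them. The D2R-KO mice had 4.807, 6.851, 1.594, 10.76 and 6.805 CPM after saline and 8.832, 1.671, 17.77 and 18.54 CPM after amphetamine, with amphetamine D2R-KO 2 again among the lowest of all 19.

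The T-box gene Tbr1 (ENSMUSG00000035033.16, chromosome 2, 61633274 to 61644458) had a narrower range, 7.7-fold between the lowest and the highest mouse. It measured 25.16, 36.89, 8.205, 14.96 and 32.95 CPM in saline control and 29.27, 56.62, 63.15, 28.29 and 35.2 CPM in amphetamine control mice. D2R-KO mice had 19.07, 19.64, 12.97, 21.28 and 34.43 CPM after saline and 31.41, 11.79, 44.95 and 49.28 CPM after amphetamine. Here too saline control 3 and amphetamine D2R-KO 2 were the lowest mice, and the groups overlapped.

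Emx1 (ENSMUSG00000033726.9, chromosome 6, 85164420 to 85181340), the dorsal lineage factor, ran from 0.5293 CPM in saline control 3 to 8.622 CPM in amphetamine D2R-KO 3. Its group values were 2.419 ± 1.68 CPM (SD, n = 5) in saline control and 3.792 ± 1.81 CPM (n = 5) in amphetamine control mice. In D2R-KO mice they were 1.892 ± 0.942 CPM (n = 5) after saline and 4.001 ± 3.34 CPM (n = 4) after amphetamine. In control mice each SD exceeded the difference between the means, and the groups overlapped.

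Fezf2 and Cux2 followed the pattern of these 5 genes less closely. Fezf2 (ENSMUSG00000021743.7, chromosome 14, 10121574 to 10127669) had 3.791, 3.202, 2.514, 2.591 and 2.844 CPM in saline control and 3.419, 6.365, 5.916, 3.309 and 4.118 CPM in amphetamine control mice. It had 2.472, 3.57, 2.814, 4.454 and 3.09 CPM in saline D2R-KO mice, and 2.832, 3.519, 15.77 and 5.347 CPM in amphetamine D2R-KO mice. A single library, amphetamine D2R-KO 3, held a level far above the other 18, which lay between 2.472 and 6.365 CPM. In the control groups all 5 amphetamine mice lay above 4 of the 5 saline mice, as for Neurod6, with saline control 1 among them. Cux2 (ENSMUSG00000042589.19, chromosome 5, 121994429 to 122188165) varied only 2.26-fold, from 27.61 CPM in saline D2R-KO 3 to 62.47 CPM in amphetamine control 3. Its values were 47.07, 43.6, 57.91, 62.17 and 41.4 CPM in saline control and 42.66, 51.59, 62.47, 49.17 and 51.96 CPM in amphetamine control mice. Saline control 3 and 4, which had among the lowest levels of Slc17a7, had among the highest of Cux2.

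**Figure D1:**
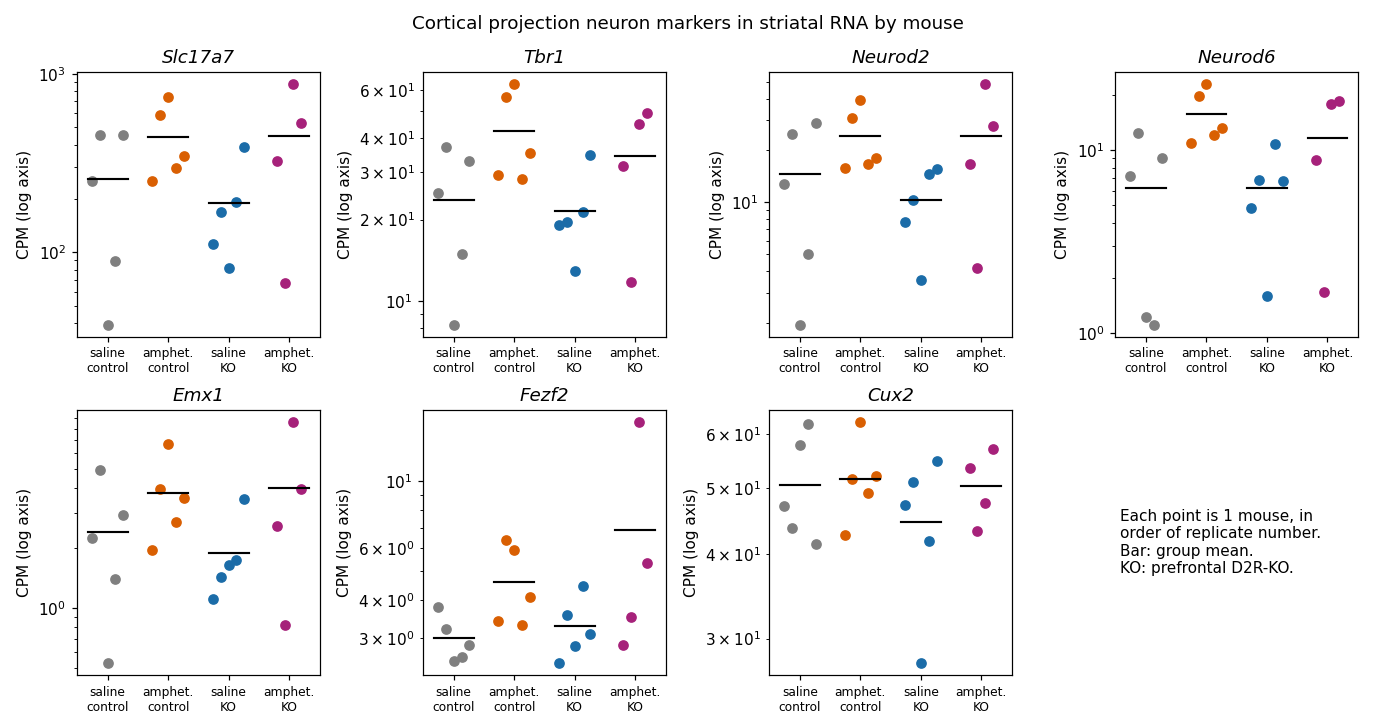
CPM of each of the 7 genes on a log axis, by group, with a point for each mouse and a bar at the group mean. The groups overlap in every panel, Slc17a7 spans from 39.29 to 876.8 CPM, and Cux2 stays between 27.61 and 62.47 CPM.

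The spread between mice of the same group was the main feature of these genes. The pooled SD of log2 CPM within groups was 1.26 for Neurod6, 1.21 for Slc17a7 and 1.21 for Neurod2, against a median of 0.24 over the 21513 genes tested. These values lay at percentiles 99.7, 99.7 and 99.6 of all genes tested. Emx1 followed with an SD of 0.995 (percentile 99.0), Tbr1 with 0.733 (94.4) and Fezf2 with 0.579 (87.0). Cux2 varied between mice about as much as a typical gene, with an SD of 0.274 (percentile 55.7).

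Across the 19 libraries the levels of 5 members moved nearly in parallel. Log2 CPM of Slc17a7 correlated with that of Neurod2 at r = 0.985 (Spearman's rho = 0.972, n = 19), of Tbr1 at r = 0.976 (rho = 0.981), of Emx1 at r = 0.956 (rho = 0.972) and of Neurod6 at r = 0.921 (rho = 0.877). The points share library, depth and tissue piece, so these values describe the libraries and carry no p-value. Neurod2 kept an almost fixed proportion to Slc17a7, as the SD of the log2 ratio was 0.217 over libraries in which Slc17a7 itself varied 22.3-fold. The proportion of Tbr1 to Slc17a7 varied more, with an SD of the log2 ratio of 0.505. With the group means removed the correlations with Slc17a7 were 0.981 for Neurod2, 0.976 for Tbr1, 0.946 for Emx1 and 0.917 for Neurod6, so mice of 1 group differed in the same way as the whole set. Leaving out the 2 libraries farthest from the median of Slc17a7 gave 0.975, 0.959, 0.925 and 0.877 for the same 4 genes.

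Fezf2 followed Slc17a7 only in part, at r = 0.647 (rho = 0.633, n = 19). Cux2 followed it least, at r = 0.207 (rho = 0.205). Without the 2 libraries farthest from the median of the first gene of each pair, Cux2 had r = 0.372 with Slc17a7, 0.473 with Tbr1, 0.665 with Neurod6, 0.36 with Emx1, 0.227 with Fezf2 and 0.0564 with Neurod2. Over all 19 libraries these values ran from 0.129 to 0.279, so the relation of the upper-layer marker to the other members turned on which libraries were included.

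**Figure D2:**
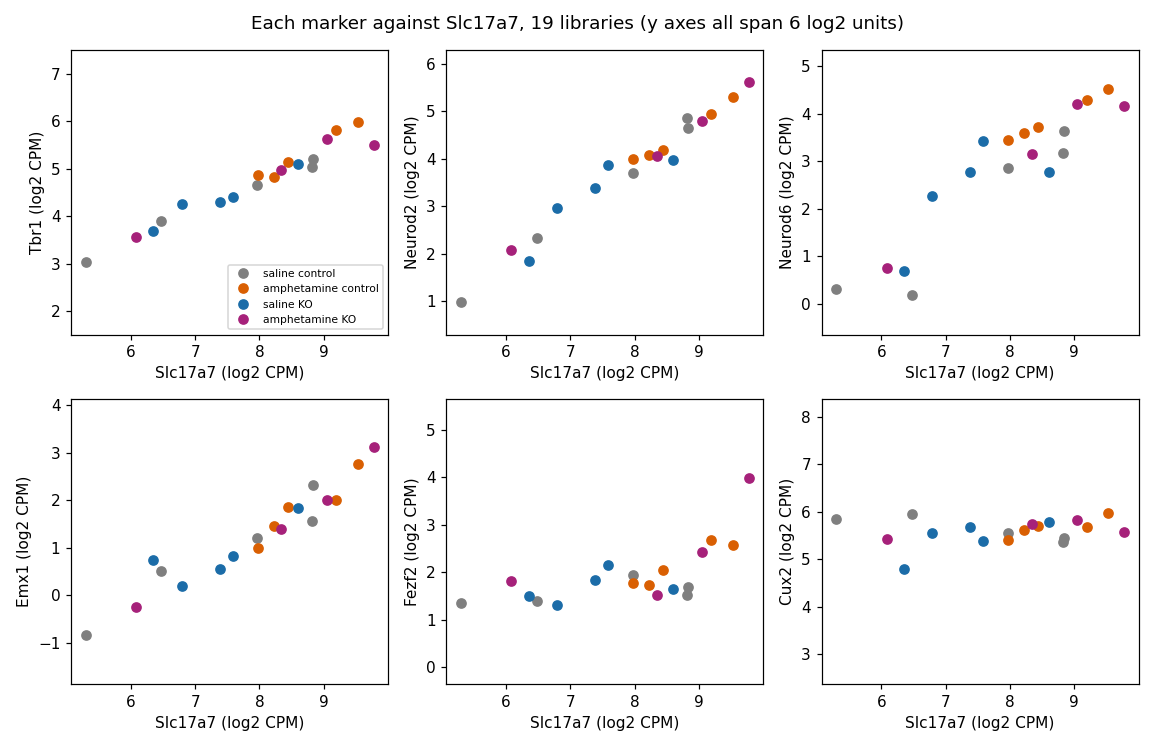
Log2 CPM of each other member (vertical axis, all spanning 6 log2 units) against log2 CPM of Slc17a7 (horizontal axis), with a point for each of the 19 libraries coloured by group. Neurod2, Tbr1, Emx1 and Neurod6 rise along a line (r from 0.921 to 0.985), Fezf2 does so less (r = 0.647) and Cux2 does so least (r = 0.207).

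The mean of the 7 members' log2 CPM, each centred on its mean over all libraries, served as a score per mouse. Saline control mice scored -0.0322, 0.526, -1.73, -1.05 and 0.324, and amphetamine control mice 0.0557, 0.936, 1.22, 0.207 and 0.428. Saline D2R-KO mice scored -0.677, -0.311, -1.21, -0.058 and 0.23, and amphetamine D2R-KO mice 0.154, -1.23, 1.37 and 0.835. All amphetamine mice but D2R-KO 2 were above 0, and 7 of 10 saline mice were below it, with saline control 2 and 5 and saline D2R-KO 5 above.

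**Figure D3:**
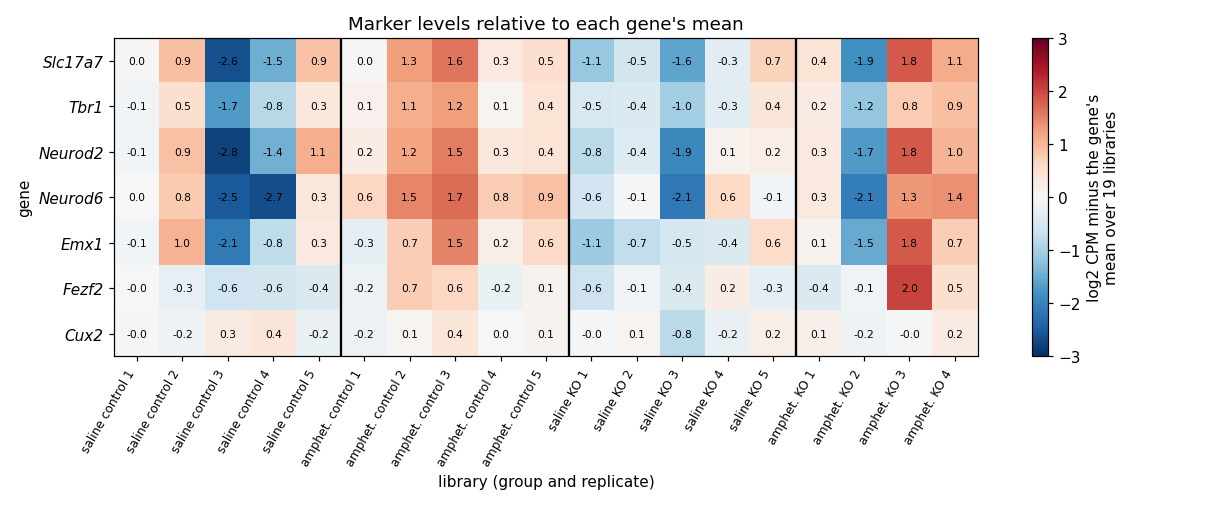
Log2 CPM of each gene minus its mean over 19 libraries, with genes in rows and mice in columns by group, red above and blue below the mean. Saline control 3 and amphetamine D2R-KO 2 are low and amphetamine D2R-KO 3 is high in Slc17a7, Neurod2, Neurod6, Tbr1 and Emx1 together, while Cux2 changes little.

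After amphetamine all 7 members had a higher estimate than after saline in control mice, and none passed the test. The median log2 fold change was 0.72, against -0.0074 over all genes tested, and 48.4% of all genes lay above 0. Since most members varied together across mice, their shared sign does not stand for 7 separate results, here or in the comparisons below. The level of Slc17a7 was 257.4 ± 196 CPM (SD, n = 5) after saline against 443.9 ± 209 CPM (n = 5) after amphetamine. That of Neurod6 was 6.208 ± 4.97 against 15.77 ± 5.26 CPM, and the median of Tbr1 was 25.16 against 35.2 CPM. In edgeR's quasi-likelihood test with Benjamini-Hochberg adjustment the log2 fold change was 1.35 ± 0.66 (SE) for Neurod6 (adjusted p = 0.438) and 0.85 ± 0.413 for Tbr1 (adjusted p = 0.436). It was 0.79 ± 0.663 for Slc17a7, with a 95% interval from -0.614 to 2.19 and an edgeR adjusted p of 0.694. The interval held both no difference and a rise of 2 log2 units, so the size of the change was not resolved with 5 mice in each group. For Cux2 the estimate was 0.03 ± 0.153, with an interval from -0.287 to 0.352, the narrowest of the members.

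Of the 7 members 0 were called in this comparison by edgeR and 0 by DESeq2, and 0 had an unadjusted edgeR p under 0.05. The background was low as well, since edgeR called 0.00465% of all genes, 11.8% had an unadjusted p under 0.05, and in 3.9% the groups did not overlap, which held for 0 of the 7 members. Without the 5 libraries farthest out 6 of 7 members lay above 0, with Cux2 at -0.12 and Emx1 at 0.42. Single libraries moved some estimates by over 1.5 times. Without saline control 3 Slc17a7 was 0.52, Neurod2 0.44 and Emx1 0.40, and without amphetamine control 3 they were 0.52, 0.47 and 0.34. Without saline control 5 Neurod2 was 1.12, and without saline control 2 Emx1 was 1.10. The authors' deposited table calls 4.21% of its genes in this comparison and among the members only Fezf2, with a log2 fold change of 0.63, a standard error of 0.204 and an adjusted p of 0.0475. The edgeR estimate for Fezf2 was 0.63 ± 0.353 with an adjusted p of 0.501, so both sources gave the same size with a different error. In a fit to the control groups alone the unadjusted edgeR p of Fezf2 was 0.0083 and the adjusted p 0.172.

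In D2R-KO mice all 7 members were again estimated higher after amphetamine, with a median log2 fold change of 1.06 against -0.0059 for all genes, of which 48.9% lay above 0. Slc17a7 had 188.1 ± 120 CPM (SD, n = 5) after saline and 449.4 ± 342 CPM (n = 4) after amphetamine. Its log2 fold change was 1.26 ± 0.699 and that of Neurod2 1.22 ± 0.68, both with an edgeR adjusted p of 0.473. Emx1 had 1.08 ± 0.583, Neurod6 0.92 ± 0.686, Tbr1 0.68 ± 0.434 and Cux2 0.18 ± 0.162. By edgeR and by DESeq2 0 of the 7 were called, beside 0.00465% of all genes in edgeR, and 1 had an unadjusted edgeR p under 0.05, beside 12.1% of all genes. That gene was Fezf2, with 1.06 ± 0.368 (unadjusted p = 0.00941, adjusted p = 0.292). The groups overlapped for all members, while they did not overlap for 5.07% of all genes. Without amphetamine D2R-KO 3 the Fezf2 value was 0.25, that of Emx1 0.38, of Neurod2 0.63 and of Slc17a7 0.71, each lower by over 1.5 times. Without amphetamine D2R-KO 4 Neurod6 was 0.61. Without all 5 libraries farthest out, which left only amphetamine D2R-KO 1 and 4 in that group, Fezf2 was 0.26. Amphetamine D2R-KO 3 also had the lowest score of 16 striatal projection neuron genes. Its mean log2 CPM was 6.382, against 7.064 to 8.174 in the others. The part of the tissue piece in these values was not tested. The authors' deposited table, which calls 0.665% of its genes here, gives Fezf2 an adjusted p of 0.432 and calls no member.

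Averaging the response over both genotypes, a contrast added after the data were seen, used all 19 mice. The estimates were 1.13 ± 0.475 for Neurod6, 1.02 ± 0.482 for Slc17a7, 0.97 ± 0.469 for Neurod2, 0.86 ± 0.402 for Emx1, 0.85 ± 0.255 for Fezf2, 0.76 ± 0.299 for Tbr1 and 0.10 ± 0.112 for Cux2. Of the 7, 5 had an unadjusted edgeR p under 0.05, beside 14.5% of all genes, and 0 were called, beside 0.149% of all genes. Most members varied together across mice, so this count does not stand for separate results. The lowest edgeR adjusted p was 0.148, for Fezf2, and DESeq2 gave 0.0685 for the same gene. Without the 5 libraries that lay farthest out, the Fezf2 value was 0.38, that of Emx1 0.58, and those of Slc17a7 (0.90), Neurod2 (0.87), Neurod6 (1.12) and Tbr1 (0.79) moved by less than 1.5 times. Without amphetamine D2R-KO 3 alone Fezf2 was 0.44 and Emx1 0.51.

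**Figure D4:**
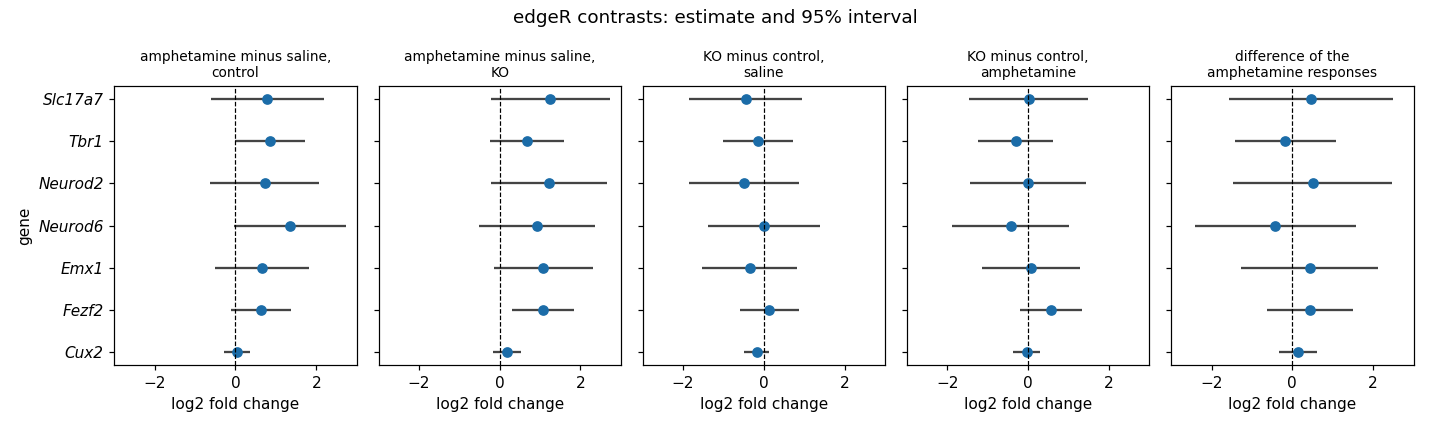
Log2 fold change (horizontal axis) of each member in 5 edgeR contrasts, with 95% intervals. In both amphetamine contrasts the 7 points lie right of 0 and, except for Fezf2 in D2R-KO mice, their intervals reach across it; the knockout contrasts scatter about 0.

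Knockout of the prefrontal D2 receptor was not accompanied by a resolved change of any member. Under saline 1 of 7 lay above 0, with a median log2 fold change of -0.181 against 0.0046 for all genes, of which 51.0% lay above 0. Slc17a7 had -0.45 ± 0.661, Neurod2 -0.50 ± 0.646, Emx1 -0.35 ± 0.558, Cux2 -0.18 ± 0.153, Tbr1 -0.14 ± 0.412, Neurod6 -0.01 ± 0.655 and Fezf2 0.14 ± 0.353. Of the members edgeR called 0, as it did 0.0% of all genes, DESeq2 also called 0, and 0 had an unadjusted edgeR p under 0.05, beside 7.94% of all genes. In 0 members did the groups separate, beside 0.911% of all genes. The edgeR adjusted p-values ran from 0.725 to 0.999. In the authors' deposited table for this comparison, which calls 0.00439% of its genes, no member is called.

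Under amphetamine the difference between D2R-KO and control mice had a median of 0.0026 over the members, beside 0.0049 for all genes. The estimates ran from -0.43 ± 0.688 for Neurod6 to 0.57 ± 0.367 for Fezf2, with 4 of 7 above 0, beside 51.0% of all genes, and edgeR adjusted p-values from 0.558 to 0.999. Slc17a7 was at 0.02 ± 0.699, with a 95% interval from -1.46 to 1.49, so a change of 1 log2 unit in either direction lay inside it. Members called by edgeR or DESeq2 numbered 0, as did those with an unadjusted edgeR p under 0.05, beside 12.8% of all genes. Groups that did not overlap were found for 0 members and 6.79% of all genes.

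The test of whether the amphetamine response differed between the genotypes called 0 members in edgeR and 0 in DESeq2, beside 0.0% of all genes in edgeR. None of the 7 had an unadjusted edgeR p under 0.05, beside 9.25% of all genes. The differences, D2R-KO response minus control response on the log2 scale, were 0.50 ± 0.934 for Neurod2, 0.47 ± 0.96 for Slc17a7, 0.43 ± 0.802 for Emx1, 0.43 ± 0.51 for Fezf2 and 0.15 ± 0.223 for Cux2. They were -0.17 ± 0.599 for Tbr1 and -0.43 ± 0.948 for Neurod6. The median was 0.43 (5 of 7 above 0), beside 0.0064 for all genes, of which 50.9% lay above 0. The standard errors exceeded the estimates for every member, and the interval for Slc17a7 reached from -1.56 to 2.5.

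Among other cortical genes, a list of 15 markers of cortical excitatory neurons at large followed the members most closely. Its mean log2 CPM correlated with the members' score at r = 0.975 (rho = 0.995, n = 19 libraries, which share depth and tissue piece) and at 0.965 without the 2 farthest libraries. Each of the 15 genes had an r of at least 0.611 with the score. In both amphetamine contrasts 15 of 15 lay above 0, beside 48.4% of all genes in control and 48.9% in D2R-KO mice. The median log2 fold change was 0.459 in control and 0.592 in D2R-KO mice, and 0 genes were called by edgeR. An unadjusted edgeR p under 0.05 with a higher level was found for 5 of 15 in each, beside 4.89% and 6.09% of all genes. Genes of a list can vary together across mice, as these 15 did with the score. Such counts do not stand for separate results, here or in the lists below. Slc30a3, the synaptic vesicle zinc transporter ZnT3, had 0.91 ± 0.596 and ranged from 2.647 to 83.32 CPM over all mice. Nrgn, the calmodulin-binding protein neurogranin, had 0.83 ± 0.234 (edgeR adjusted p = 0.2) and the highest mean FPKM of the list, 267.5, followed by the kinase gene Ptk2b with 98.23. Both are also transcribed in the striatum.

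Lists named for single cortical layers differed in how they followed the members. Which cells of the tissue piece gave these transcripts was not tested, so the values do not rank the layers themselves. Genes of layers 6 and 6b followed at r = 0.826 (rho = 0.814, 11 genes), but only 6 of its genes had an r above 0.5. Nxph3 and Cplx3, which had the largest changes in control mice (0.67 ± 0.312 and 0.79 ± 0.488, neither called by edgeR), had r of 0.892 and 0.859. The highest per length were Rprm (mean FPKM 26.79, r = 0.633) and Syt6 (18.64, r = -0.103), and Foxp2 and Tle4 ran at -0.348 and -0.283. The layer 5 list was at 0.417 (rho = 0.381, 10 genes) and the list of layers 2 to 4 at -0.0037 (rho = -0.202, 10 genes). Per length the highest genes of the layer 5 list were Crym (mean FPKM 53.51) and Sulf2 (16.76), and those of layers 2 to 4 Lamp5 (37.49) and Rasgrf2 (19.42). Of the latter list, Cux1, the relative of Cux2, ran only from 72.71 to 106.4 CPM over all mice and had an r of 0.241. In control mice 0 genes of these 3 lists were called by edgeR. Their medians after amphetamine were 0.179 for layers 6 and 6b, 0.104 for layer 5 and -0.0035 for layers 2 to 4, beside the 0.72 of the members.

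Some genes of other pallial structures also followed the members. The 5 measured genes of the claustrum, endopiriform and piriform list had r = 0.821 (rho = 0.847) as a mean. Nr4a2, a nuclear receptor of claustral and deep-layer neurons, was at 0.91 and Ntng2 at 0.892, while Synpr was at 0.452, Gnb4 at 0.129 and Lxn at 0.1. The 5 genes of the amygdala and pallial-subpallial border list had r = 0.871 (rho = 0.923), with Lmo3, a LIM-domain cofactor gene, at 0.872 and the more abundant homeobox gene Meis2 at 0.143. Lhx9, with the largest change of that list in control mice, -0.94 ± 0.428, was at -0.278, and 3 of the 5 genes were above 0.5. The hippocampal list did so least, at r = 0.168 (rho = 0.0737), with 1 of 6 genes above 0.5. That gene, Lct, reached at most 0.6139 CPM, Iyd 0.3906 CPM and Dsp 1.2 CPM, so this list rested in part on very low levels. No gene of these lists was called by edgeR in any contrast.

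Genes of the list named for the septum and pallidum, subpallial neighbours of the striatum, ran against the members. Which cells of the tissue piece gave these transcripts was not tested. For the septum and pallidum list r was -0.756 (rho = -0.879, 7 genes), and all 7 genes had a negative r, from -0.814 for Lhx8, a homeobox factor of cholinergic neurons, to -0.322 for Trpc4. In control mice all 7 were lower after amphetamine, beside 51.6% of all genes, with a median log2 fold change of -0.603. An unadjusted edgeR p under 0.05 was found for 5, beside 6.95% of all genes that were lower at that level. Dlk1 had the largest difference, -0.97 ± 0.206 (edgeR adjusted p = 0.144), followed by Nkx2-1, the homeobox factor of the pallidal lineage, with -0.63 ± 0.279. In D2R-KO mice the median was -0.158, with 7 of 7 below 0, beside 51.1% of all genes. None had an unadjusted edgeR p under 0.05, beside 12.1% of all genes in either direction. Amphetamine control 3, with a member score of 1.22, had the lowest septum and pallidum score of all, 3.175, and the lowest ependymal score, 0.4417. With the group means removed, r with the members was -0.675 for the septum and pallidum list and only -0.179 for the ependymal list. Amphetamine D2R-KO 3, with a member score of 1.37, had a septum and pallidum score of 3.997 and an ependymal score of 1.962. The part of these marker levels in the members' values was not tested.

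The score of the 16 striatal projection neuron genes did not follow the members, at r = -0.0581 (rho = 0.147). Its median log2 fold change after amphetamine was 0.431 in control mice (15 of 16 above 0) and -0.391 in D2R-KO mice (1 of 16 above 0). Of all genes 48.4% and 48.9% lay above 0, and the members' medians were above 0 in both. None of the 16 was called by edgeR in these contrasts.

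**Figure D5:**
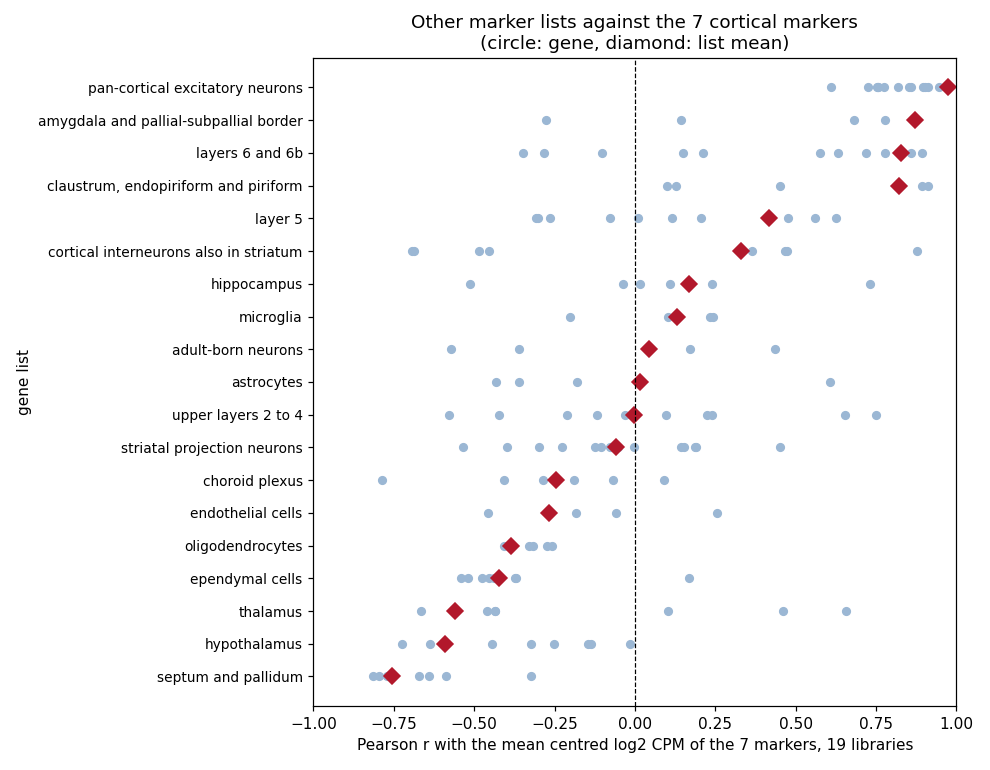
Pearson r (horizontal axis) between the members' score and each gene of 19 other marker lists (circles) and each list's mean log2 CPM (diamonds) over 19 libraries. The list of pan-cortical excitatory neurons lies at 0.975 and that of septum and pallidum at -0.756, with striatal projection neurons near 0.

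By likeness over all 19 libraries, the 10 genes closest to the members' score, the members left out, were Rtn4rl2, Mpped1, Sv2b, Cck, Arhgap15, Fam81a, Dtl, Mfsd4a, Mas1 and Fhl2, with Pearson r from 0.979 to 0.947. Rtn4rl2, which encodes a relative of the Nogo receptor, ran from 1.694 to 23.26 CPM. Sv2b, a synaptic vesicle protein gene, ran from 95.68 to 431.2 CPM and Cck, the cholecystokinin precursor, from 11.38 to 123.8 CPM. Both are in the list of cortical excitatory markers, and the other 8 are in none of the lists. With the group means removed 8 of the 10 were shared, and Slc30a3 and St8sia5 took the places of Mas1 and Fhl2. In all, 47 of 21506 genes had an r above 0.9 and 17 an r under -0.8 with the score.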

How the data were processed

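Striatal RNA of 19 mice was analysed from gene counts that the authors deposited per mouse. The build is GRCm39 and the tools are HTSeq 0.6.1p2, STAR 2.6.0c, Trim Galore 0.5.0, FastQC 0.11.5, R 3.6.1 and DESeq2 1.26.0s, per the submitters' processing notes. The sources used here give neither their roles nor the strand setting or annotation release, and overlapping genes can share reads. Per the file headers, the authors' comparison tables also hold FPKM per mouse, a normalised mean signal (baseMean), log2 fold changes with standard errors, a Wald score, and p-values with adjusted p-values. One further D2R-KO library, named in the authors' table as excluded, is not analysed here.

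Counts were tested here in R 4.3.3 with edgeR 4.0.16 (filterByExpr, TMM, robust quasi-likelihood fit of 4 group means over all 19 libraries). P-values were adjusted by Benjamini-Hochberg over 21513 genes, with calls at an adjusted p under 0.05. The standard error was the log2 fold change over the root of F, and 95% intervals used the t quantile of the fit. Log2 CPM used a prior count of 2. Alternatives used DESeq2 1.42.0, limma 3.58.1 (voom), other scaling, no filter, a replicate block, the compared groups alone and leaving out libraries. The test was also checked on simulated counts, with each gene's dispersion capped at the median over genes. Most members varied far more between mice than a typical gene, so that check does not cover them. The members, the 19 other lists and the tests were chosen with earlier results of these data known. Genes named are all members, the 10 most alike by Pearson r (in both versions), and from the further lists genes called or else among the 2 with the largest change after amphetamine in control mice and the 2 highest in FPKM. Cux1, Lhx8, Trpc4, Foxp2, Tle4, Gnb4, Iyd, Dsp, Hcrt, Agrp and Nr5a1 were named after their values were seen. A gene of the pan-cortical list that this rule selects is not reported here. Promoter sequences are from RefSeq, GRCm38.p6. P-values measure the spread between mice, and the labels give no batch.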

Additional observations from a re-analysis of the deposited data

Results flagged for a closer look

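Emx1 in saline D2R-KO 5 had 3.52 CPM, while the other 4 mice of the group lay between 1.111 and 1.749 CPM, so that this mouse stood apart by the usual test for an outlying value in a small group. Of 28 combinations of member and group that were checked, this was 1 flag, and this test by chance marks about 1 in 20 such groups. The same mouse had the highest Slc17a7 (388.6 CPM), Tbr1 (34.43 CPM), Neurod2 (15.67 CPM) and Cux2 (54.79 CPM) of its group. It did not have the highest Neurod6 (6.805 CPM) or Fezf2 (3.09 CPM), which saline D2R-KO 4 had with 10.76 and 4.454 CPM.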

How the results depend on the processing

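No member was called under any of 280 alternatives to the 42 member values, or in 532 that left out a library. The lowest adjusted p-values were 0.0685 (DESeq2) and 0.0643 (leaving out amphetamine D2R-KO 2), both for Fezf2 averaged over genotypes. Of the alternatives that left out no single library, 17 turned a sign, all of values whose interval included 0. Without the 5 libraries farthest out, Cux2 after amphetamine in control mice was -0.12. Under saline the knockout differences were then 0.045 for Slc17a7, 0.15 for Tbr1, 0.12 for Neurod2 and 0.42 for Neurod6. Under amphetamine, with only D2R-KO 1 and 4 left in that group, they were 0.11 for Tbr1, -0.072 for Fezf2 and 0.18 for Cux2. With the same libraries the difference between responses was -0.0053 for Neurod2 and -0.25 for Fezf2. With limma voom the knockout difference was 0.42 for Neurod6 under saline, and under amphetamine -0.36 for Slc17a7, -0.39 for Neurod2 and -0.30 for Emx1. The difference between responses was then -0.22 for Slc17a7, -0.34 for Neurod2 and -0.19 for Emx1. The cause was not tested.

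Leaving out a library at a time turned 37 values. After amphetamine in control mice Cux2 ran from -0.052 to 0.12, and the other values after amphetamine stayed above 0, though several moved by over 1.5 times. Knockout differences under saline ran from -0.38 to 0.078 for Tbr1, -0.31 to 0.41 for Neurod6, -0.70 to 0.083 for Emx1 and -0.0065 to 0.23 for Fezf2. Under amphetamine they ran from -0.53 to 0.38 for Slc17a7, -0.58 to 0.35 for Neurod2, -0.63 to 0.41 for Emx1, -0.25 to 0.83 for Fezf2 and -0.10 to 0.043 for Cux2. The difference between responses ran from -0.081 to 0.92 for Slc17a7, -0.39 to 0.12 for Tbr1, -0.087 to 0.85 for Neurod2, -0.27 to 0.78 for Emx1 and -0.38 to 0.69 for Fezf2. Fezf2 after amphetamine in D2R-KO mice ran from 0.25 (without amphetamine D2R-KO 3) to 1.32.

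Genes called in the whole table depended on the tool. The counts for amphetamine in control, amphetamine in D2R-KO, knockout under saline, knockout under amphetamine and the difference between responses were 1, 1, 0, 0 and 0 in edgeR and 214, 98, 2, 103 and 14 in DESeq2. With limma voom the second was 3. Fits to the compared groups alone gave 75 for the first and 0 for the second. Without the 5 libraries the first was 39, the second 2 and the fourth 1. The count averaged over genotypes was 32, 467 in DESeq2 and 470 without the 5 libraries. Leaving out a library gave 0 to 4, 0 to 3, 0 to 0, 0 to 0, 0 to 0 and, averaged, 3 (amphetamine control 3 or 5, or amphetamine D2R-KO 4) to 269 (saline control 5).

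Replicate numbers name separate mice, and the deviations of 18 same-numbered pairs correlated from -0.221 to 0.154, with 1 above 0.1, so the numbers do not pair the samples. With a replicate block the counts were 1, 5, 0, 0 and 0, and 18 averaged over genotypes, and no member was called. Slc17a7, with 2969 to 62850 counts per library and a within-group SD of 1.21, had a standard error of 0.663 after amphetamine in control mice. Fezf2, with 190 to 1130 counts and an SD of 0.579, had 0.353. The shares of counts and of the spread between mice in the precision were not tested.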

Other observations

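Ependymal and hypothalamic lists, for tissue around the striatum, had medians below 0 after amphetamine in both genotypes, in which the members' medians were above 0. The values that follow are for control mice unless stated. Of 8 ependymal genes, which belong to the ciliated lining of the ventricle, 8 lay below 0, beside 51.6% of all genes. Their median log2 fold change was -0.693, and 6 had an unadjusted edgeR p under 0.05, beside 6.95% of all genes that were lower at that level. In D2R-KO mice the ependymal median was -0.127, with 7 of 8 below 0, beside 51.1% of all genes. At an unadjusted edgeR p under 0.05 there were 0, beside 12.1% of all genes in either direction. Tmem212 had -1.06 ± 0.306 (edgeR adjusted p = 0.2) and Tekt1, a cilium protein gene, -0.97 ± 0.204 (edgeR adjusted p = 0.124). Of 9 hypothalamic peptide and marker genes 7 lay below 0, beside 51.6% of all genes, with a median of -0.625. In D2R-KO mice 6 lay below 0, beside 51.1% of all genes, with a median of -0.763. The gene at the control median, Hcrt (-0.625 ± 0.929), reached at most 0.6139 CPM, Agrp 0.2457 CPM and Nr5a1 0.2477 CPM. This list thus rested in part on very low levels. Avp, the vasopressin gene, had -3.55 ± 1.16 (edgeR adjusted p = 0.252) and ranged from 0.3058 to 73.78 CPM over mice, and Oxt, the oxytocin gene, had -3.09 ± 1.06 (edgeR adjusted p = 0.269). Over the 19 libraries the correlation with the members' score was -0.592 for the hypothalamic list (rho = -0.591), -0.559 for the thalamic list (rho = -0.535) and -0.422 for the ependymal list (rho = -0.432). Amphetamine D2R-KO 2, with a member score of -1.23, had the highest choroid plexus score of all mice, 4.127.

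For the remaining lists the correlation with the members' score lay between -0.386 and 0.329. It was 0.329 for interneurons (rho = 0.277), 0.0148 for astrocytes (rho = 0.0351), -0.386 for oligodendrocytes (rho = -0.325), 0.131 for microglia (rho = 0.391), -0.266 for endothelial cells (rho = -0.247), -0.246 for choroid plexus (rho = -0.0298) and 0.0434 for adult-born neurons (rho = -0.0632). Of all 19 lists only Aldh1l1, an astrocyte enzyme gene, was called, in the contrast averaged over genotypes, with -0.32 ± 0.0633 and an edgeR adjusted p of 0.0453.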
